A study of Mus musculus and Rattus norvegicus with 30 samples.

Results

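The comparison is of dorsal root ganglia (DRG) from B10.D2 mice after spared nerve injury (SNI) and after sham surgery. Its members are the 10 B10.D2 libraries of the mouse count table, 5 labelled SNI and 5 labelled sham, of 20 mouse libraries with counts and 30 samples in the whole series. SNI is a partial lesion of the sciatic nerve, after which the tibial branch alone keeps its axons, and sham animals had the approach without a lesion. The other mouse libraries, of the BALB/c strain, entered the model fit and the strain comparisons only. Every mouse of the compared libraries was an inbred B10.D2 animal bought when young. Lumbar ganglia 3 and 4 of each such mouse, taken about a month after surgery, made 1 unpooled library. Because a branch was spared, these ganglia held neurons with cut and with uncut axons, which a library of whole ganglia does not separate.

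The sham group held 3 male libraries (58, 60 and 88) and 2 female libraries (67 and 77), and the SNI group held 2 male (89 and 90) and 3 female libraries (69, 76 and 78), each named by the number in its label. Counts per library ranged from 34.1 to 41.9 M (M, mega), so that 3 counts stood at 0.0716 to 0.0881 CPM (counts per mega-count of the library). Xist, transcribed from the inactive X chromosome, was at 406 to 476 CPM in the 5 female libraries and at 1.26 to 2.98 CPM in the 5 male ones, and the Y-linked Ddx3y was at 0.204 to 0.436 and at 73.5 to 103.5 CPM in them, so the labelled sexes were met. In a principal component analysis of the 10 libraries, the first component (24.1% of the variance) placed all SNI libraries, from 0.918 to 38.4, above all sham libraries, from -34.2 to -7.01. SNI 89 was the SNI library nearest to sham on that axis. Within each surgery group the female libraries also lay above the male ones on it, and the model below carries a term for sex. A sham sample numbered 59 has no column in the table and was not analysed here.

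A DRG holds the cell bodies of sensory neurons, each wrapped by satellite glia, together with the Schwann cells of passing axons, resident macrophages, fibroblasts and vessels. Large neurons with myelinated A fibres carry touch and position sense and are rich in neurofilaments, while small neurons with C fibres carry pain, itch and temperature. When a peripheral axon is cut, its cell body switches on a programme of transcription factors, growth genes and neuropeptides known as the regeneration-associated response, and lowers many channels and synaptic genes of the uninjured state. Macrophages of the ganglion also multiply and are recruited after such injury. In whole ganglia, fewer cells of a type and less RNA per cell cannot be told apart.

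Of 24685 features tested, 1130 were significantly differentially expressed (DE), that is 4.58% of them, with 519 (2.10%) higher and 611 (2.48%) lower in SNI. The test was edgeR's quasi-likelihood F test, two-sided and adjusted over all features by the Benjamini-Hochberg method. The model was fitted to all 20 mouse libraries. The 6 sham and 4 SNI libraries of BALB/c thus also entered the estimate of spread. DE means an adjusted p under 0.05 throughout. Changes of at least 2-fold were found for 138 of the DE features that rose and for 38 of those that fell. The median log2 fold change over all features tested was 0.008. Protein-coding genes made up 954 of the DE features, annotated long noncoding RNAs (LncRNAs) 52, and the LncRNAs assembled by the study 93. The number of DE features was 665 without SNI 90 and 730 without SNI 69.

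The promoters of the genes with the largest rises are shown first, since a letter motif recurs in them. The motif is TGANTCA, where N is any base, the sequence bound by AP-1 factors such as JUN. It was sought on both strands in the 250 bases before each RefSeq gene start on GRCm38.p6, and it lies in 2217 of 32851 such windows (6.75%). Of the 12 annotated genes with the largest rise, 10 had a window and 4 of these held the motif. Of the 12 with the largest fall, 9 had a window and 1 held it, Gm8104, whose RefSeq start lies away from the gene model that was counted. The 4 windows with the motif follow, 5′ to 3′ along each gene's strand, with the motif in capitals, and the window of Npy, which holds none, is set beside them.
Sprr1a, chr3:92485882-92486131, minus strand: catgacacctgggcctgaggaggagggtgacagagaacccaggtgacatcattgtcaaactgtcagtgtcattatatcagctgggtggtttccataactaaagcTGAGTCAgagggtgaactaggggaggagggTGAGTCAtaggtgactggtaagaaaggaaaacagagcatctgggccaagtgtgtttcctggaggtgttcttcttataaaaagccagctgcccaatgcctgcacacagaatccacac
Anxa10, chr8:62123194-62123443, minus strand: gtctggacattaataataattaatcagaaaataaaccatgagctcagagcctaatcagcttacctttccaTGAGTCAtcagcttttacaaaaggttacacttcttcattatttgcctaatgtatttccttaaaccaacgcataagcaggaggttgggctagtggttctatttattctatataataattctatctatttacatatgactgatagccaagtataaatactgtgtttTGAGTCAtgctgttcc
Lipn, chr19:34067108-34067357, plus strand: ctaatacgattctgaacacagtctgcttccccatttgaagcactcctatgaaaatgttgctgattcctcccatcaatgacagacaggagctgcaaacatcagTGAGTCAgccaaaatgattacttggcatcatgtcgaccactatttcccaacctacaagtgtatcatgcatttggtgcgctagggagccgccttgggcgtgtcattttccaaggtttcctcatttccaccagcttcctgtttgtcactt
Lrtm1, chr14:29017958-29018207, plus strand: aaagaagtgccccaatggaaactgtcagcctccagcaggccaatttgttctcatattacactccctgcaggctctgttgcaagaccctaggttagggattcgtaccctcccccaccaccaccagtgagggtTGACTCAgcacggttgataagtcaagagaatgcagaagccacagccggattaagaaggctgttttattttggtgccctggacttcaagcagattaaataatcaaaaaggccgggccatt
Npy, chr6:49822460-49822709, plus strand: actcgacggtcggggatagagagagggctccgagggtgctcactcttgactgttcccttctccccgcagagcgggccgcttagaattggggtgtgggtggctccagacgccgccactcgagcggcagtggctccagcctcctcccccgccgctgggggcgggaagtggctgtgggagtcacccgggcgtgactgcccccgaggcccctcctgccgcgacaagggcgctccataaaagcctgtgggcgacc
In Sprr1a the motifs begin 146 and 116 bases before the start, and in Anxa10 180 and 16 bases before it. In Lipn it begins 148 bases before the start and in Lrtm1 119 bases before it. The motif was also sought before a fixed set of injury and marker genes. Cd68, which was not DE, held it 149 and 24 bases before its start. The windows of Atf3, Gal and Csf1, which rose, held none, nor did those of Calca, Apoe and Mrgprd, which were not DE. The Atf3 window (chr1:191183334-191183583) lies within the gene model that was counted, not before its upstream end. The full cyclic AMP response element TGACGTCA, which ATF and CREB factors bind, is in 508 of the windows (1.55%) and in none of those found for the 24 genes. These matches describe letters and are not evidence of binding.

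The largest rises included genes known from injured sensory neurons. Sprr1a, a small proline-rich protein of injured axons (mm10, chr3:92483952-92485895, minus strand), was at 0.468, 0.995, 0.489, 0.213 and 0.41 CPM in sham 58, 60, 67, 77 and 88. It stood at 23.4, 6.3, 19.2, 16.7 and 16.9 CPM in SNI 69, 76, 78, 89 and 90. The lowest SNI library thus lay above the highest sham library, and SNI 76 was well below the other 4. The rise was 33.2-fold (log2 5.05, SE 0.446, adjusted p = 2.79e-06).

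Npy, a neuropeptide that uninjured DRG neurons hardly make (chr6:49822710-49829507, plus strand), was at 0.877, 2.29, 1.96, 0.585 and 0.99 CPM in the sham libraries and at 36.3, 9.21, 24.1, 25.2 and 29.5 CPM in the SNI libraries, in the same order. The groups did not overlap, with SNI 76 again lowest of its group. Npy rose 19.4-fold (log2 4.28, SE 0.415, adjusted p = 4.93e-06). Cckbr, a receptor for cholecystokinin and gastrin, rose from 0.506 ± 0.387 to 7.79 ± 3.02 CPM (SD, n = 5 each), 16.9-fold. Ecel1, a membrane endopeptidase induced by nerve injury, was at 0.479 to 2.23 CPM in sham and at 17.3, 3.78, 13.7, 15 and 15.2 CPM in SNI, a rise of 11.1-fold (log2 3.47, SE 0.431, adjusted p = 4.83e-05). Fgf3, a fibroblast growth factor, rose from 0.23 ± 0.247 to 3.24 ± 1.63 CPM, and its highest sham library, sham 60 at 0.663 CPM, lay just under its lowest SNI library, SNI 76 at 0.74 CPM.

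The other 7 of the 12 were near the floor of detection in sham. Lipn, a lipase family member known from skin, was at 0.0532 to 0.136 CPM in sham and at 0.613 to 2.6 CPM in SNI, and Anxa10, an annexin, at 0 to 0.16 and at 1.05 to 2.74 CPM. Pkhd1, the gene of recessive polycystic kidney disease, was at 0 to 0.266 CPM in sham and at 0.51 to 1.73 CPM in SNI. Lrtm1, a leucine-rich repeat membrane protein, was at 0 to 0.241 CPM in sham and at 0.459 to 1.65 CPM in SNI. It lies within Cacna2d3 on the opposite strand, and whether the counting used strand is not given in the sources used here, and Cacna2d3 itself fell. The part of its reads in the result was not tested. Tex16 and Gm45194, neighbouring X-linked models that overlap on the same strand, rose 14.0-fold and 22.0-fold, and reads of the pair may have been split between them. Gm29374, an annotated LncRNA just downstream of Ecel1 on the same strand, rose 16.7-fold.

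**Figure D1:**
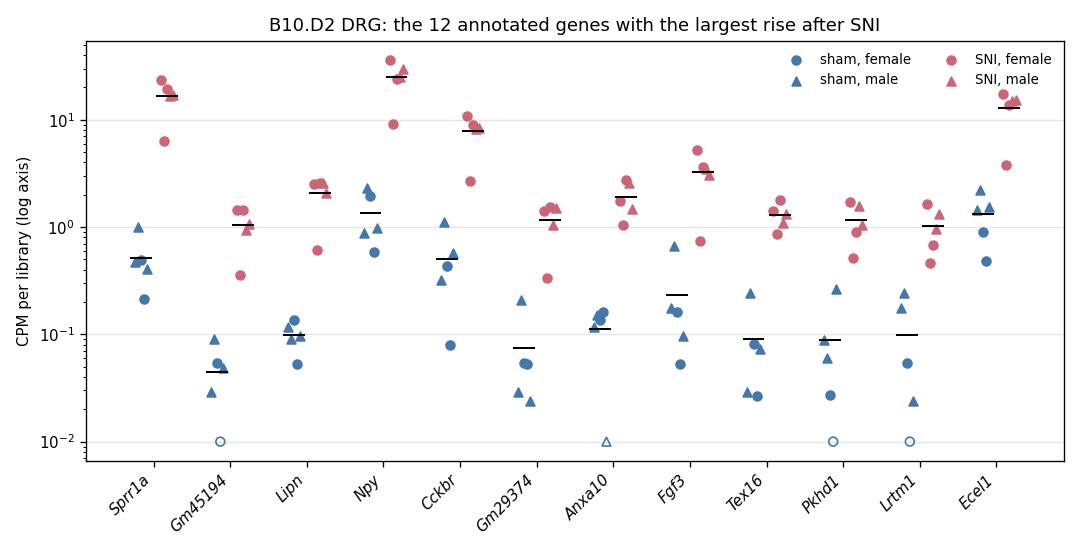
CPM per library on a log axis for the 12 annotated genes with the largest rise, with circles for female and triangles for male libraries, black bars for group means, and open symbols at the bottom for values of 0. The 5 SNI libraries lie above the 5 sham libraries for each gene, and the lowest SNI point in each is SNI 76.

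In the plot of these genes the order of the libraries differed from gene to gene, apart from the lowest SNI library. SNI 76 was the lowest SNI library for 12 of the 12 genes, and sham 60 was the highest sham library for 9 of them. Without SNI 76 the rise of Sprr1a was log2 5.23 and that of Npy log2 4.46, both larger than with it, and 1112 features were DE. Without sham 60 the rise of Fgf3 was log2 4.73 against 3.92 with it. The groups of these genes were chosen not to overlap, so that the separation itself is not a finding, and 1278 of all features tested (5.18%) met it, 761 of them DE.

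Atf3, the transcription factor that marks neurons with cut axons (chr1:191170296-191218039, minus strand), led the 17 regeneration-associated transcription factors tested. It was at 23.8, 13.4, 11.6, 8.54 and 9.95 CPM in sham and at 106, 35.6, 94.1, 85.8 and 87.8 CPM in SNI. The groups did not overlap, and SNI 76 lay nearer to the highest sham library than to the other 4 SNI libraries. Atf3 rose 6.44-fold (log2 2.69, SE 0.304, adjusted p = 1.79e-05). In this list 4 members (23.5%, against 2.10% of all features) rose and none fell, with a median log2 fold change of 0.22. This list and the later ones were chosen with earlier results of these data known. Their shares are descriptions, and no set test was made. Sox11, a growth-promoting factor of regrowing axons, rose from 22.4 ± 3.88 to 43.9 ± 9.79 CPM (1.97-fold, adjusted p = 0.000319). Smad1, which relays bone morphogenetic protein signals, rose 1.21-fold, and Klf6 was the other member that rose (log2 0.25, not DE without sham 67). Jun stood at 51.5 ± 10.1 CPM in sham and 65.2 ± 13.6 CPM in SNI (log2 0.34, SE 0.141, adjusted p = 0.207), and Stat3 at 393 ± 20.8 and 406 ± 17.6 CPM, neither DE.

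Of 27 tested effectors of the response, 17 rose and none fell, a share of 63.0% against 2.10% of all features. The other 10 were not DE. This list, chosen with earlier results known, holds Sprr1a, Ecel1 and Fgf3 of the largest rises, so its share is no independent support. The median log2 fold change was 0.46. Flrt3, a membrane protein of axon growth and adhesion, was at 25.3 to 30 CPM in sham and at 46.1 to 77.9 CPM in SNI (2.34-fold, log2 1.23, SE 0.111, adjusted p = 2.79e-06). Tubb6, a beta-tubulin, rose from 9.84 ± 0.968 to 24.9 ± 5.67 CPM. Stmn4 (log2 1.27), Arg1 (1.07), Mmp16 (1.01), Sema6a (0.99) and Gap43 (0.46) rose as well, with products that act in microtubules, arginine use, matrix cleavage, guidance and growth cones, but Arg1 was not DE in 9 of the 10 fits that left out a library. The tubulins Tuba1a (2730.3 and 2897 CPM on average, log2 0.10) and Tubb3 (log2 0.05) were not DE, nor was Stmn2 (log2 0.22, adjusted p = 0.2).

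Neuropeptides split into those that rose and those that were not DE. Of 18 tested, 5 rose (27.8%, against 2.10% of all features) and none fell. Besides Npy these were Nts, the gene of neurotensin, Gal, the gene of galanin, Ucn, the gene of urocortin, and Crh, the gene of corticotropin-releasing hormone (log2 2.33). Nts was at 12.4, 15.6, 11.3, 7.48 and 11.3 CPM in sham and at 109.8, 29.4, 82.7, 67.8 and 85.9 CPM in SNI, with no overlap and SNI 76 lowest. It rose 6.84-fold (log2 2.77, SE 0.272, adjusted p = 4.93e-06). Ucn rose from 0.0925 ± 0.0789 to 0.986 ± 0.375 CPM, on 16 counts in all sham libraries together. The peptides of uninjured nociceptors were not DE. Calca, the gene of calcitonin gene-related peptide, was at 917 to 1166 CPM in sham and 771 to 965 CPM in SNI (log2 -0.18, SE 0.0629, adjusted p = 0.13). Tac1, the gene of substance P, was at 166 ± 33.9 and 170.1 ± 33.5 CPM (log2 0.05, SE 0.154).

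Gal (chr19:3409915-3414544, minus strand) was at 4.56, 7.21, 6.49, 8.17 and 8.18 CPM in sham and at 26.7, 15.4, 28, 27.8 and 21.8 CPM in SNI. The rise, 3.49-fold (log2 1.80, SE 0.261, adjusted p = 0.000216), was in all 5 SNI libraries. In BALB/c mice, another strain of the series given the same surgeries, Gal was at 8.15 ± 3.49 CPM in 6 sham libraries and at 144.8 ± 38.8 CPM in 4 SNI libraries. The strain by injury interaction, tested in the same model, was log2 -2.37 (B10.D2 minus BALB/c, adjusted p = 0.014), so the rise was smaller in B10.D2. That interaction was called for 6 of 24685 features (0.0243%), and 4 of the 1130 B10.D2 DE features were among them.

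Among 24 neuropeptide and opioid receptors tested, 3 rose (12.5%, against 2.10% of all features) and 2 fell (8.33%, against 2.48%). Oprd1, the delta opioid receptor, was lower in every SNI library, at 22.3, 22.1, 22.8, 21.1 and 23.2 CPM in sham and at 11.6, 12.5, 12, 14.4 and 13.6 CPM in SNI. Each group was narrow and the groups were far apart, and Oprd1 fell by 42.4% (log2 -0.80, SE 0.0802, adjusted p = 6.6e-06). Oprl1, the nociceptin receptor, fell by 0.46 on the log2 scale, from 28 ± 2.01 to 20 ± 1.94 CPM. Oprm1, the mu opioid receptor, was at 54.3 ± 5.09 CPM in sham and 52.1 ± 2.26 CPM in SNI and was not DE (log2 -0.06, SE 0.0712, adjusted p = 0.771). Cckar rose 1.37-fold beside Cckbr. Npy1r, a receptor of neuropeptide Y, rose 1.39-fold (adjusted p = 0.0354) but was not DE in 7 of the 10 fits that left out a library.

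**Figure D2:**
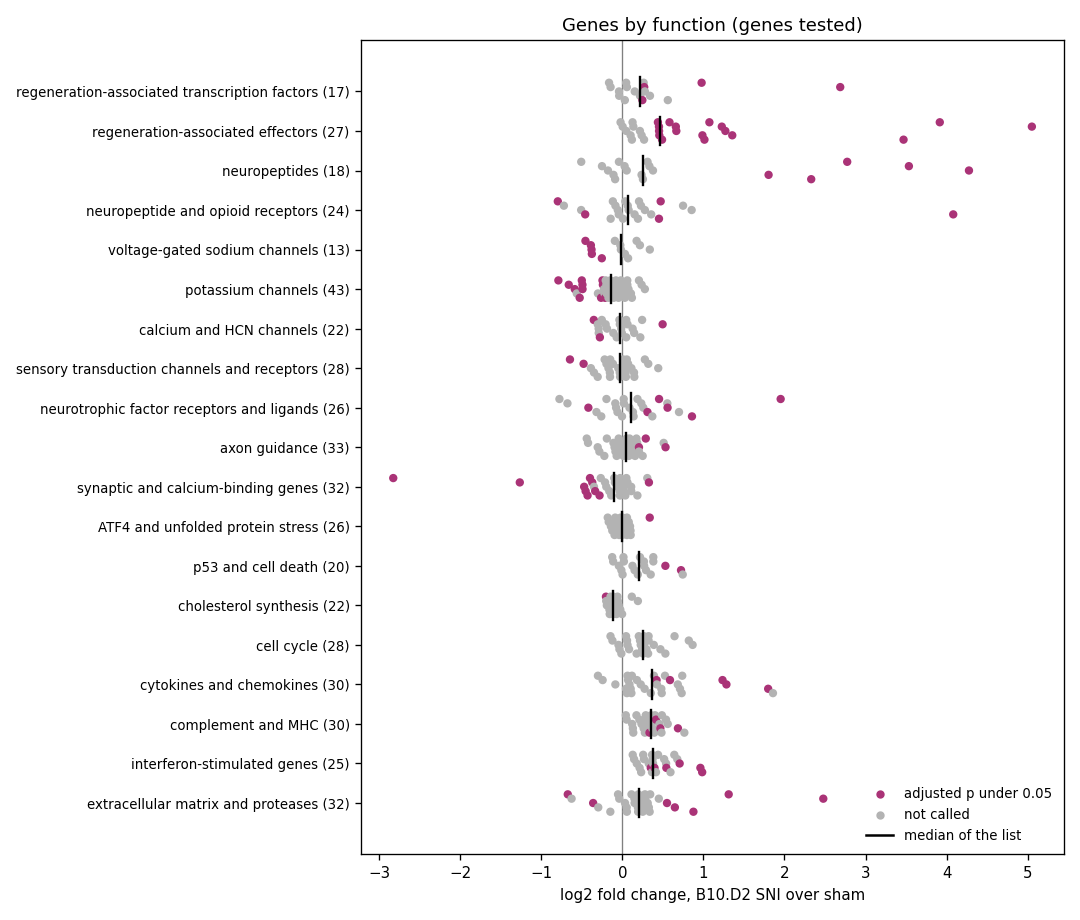
Log2 fold change of SNI over sham for every tested member of 19 lists of genes by function, with DE members in purple, others in grey, and the list median as a black bar. Regeneration-associated effectors and neuropeptides reach the largest rises, and DE sodium and potassium channels all lie left of 0.

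Voltage-gated channels fell where they were DE, with Cacna2d1 as the exception. Of 13 sodium channel genes, 5 fell (38.5%, against 2.48% of all features) and none rose. Scn1a, the NaV1.1 subunit, was at 330.4, 302.7, 273.9, 284.8 and 272.9 CPM in sham and at 187.9, 205.8, 204.5, 234.3 and 214.9 CPM in SNI, a fall of 27% (log2 -0.45, SE 0.0543, adjusted p = 2.96e-05). Scn4b, an auxiliary subunit, and Scn8a, the NaV1.6 subunit, fell too, as did Scn4a. The subunits of nociceptors were not DE: Scn10a was at 890.0 ± 40.4 and 834 ± 53.8 CPM, Scn9a at 822 ± 47.1 and 809 ± 58.7 CPM, and Scn11a at log2 0.03. The count of 5 was reached in none of the 10 fits that left out a library. It was 2 without sham 58, sham 60 or sham 67, where Scn8a was not DE, 3 without SNI 78 or SNI 90 and 4 in the other 5 fits, and Scn4a was DE in 1 of the 10.

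Of 43 potassium channel genes, 11 fell (25.6%, against 2.48% of all features) and none rose, with a median log2 fold change of -0.14. Kcng4, a modifier subunit of Kv channels, fell from 15 ± 1.38 to 8.6 ± 1.64 CPM (log2 -0.79), Kcnip1 fell by 0.49 and Kcnh5 by 0.49 on the log2 scale. Kcns1 (log2 -0.59) and Kcnj11 (log2 -0.50) were among the others, and 7 members were DE without sham 60. Kcna1 stood at 261 ± 29.8 and 219.5 ± 28.9 CPM and was not DE. Of 22 calcium and HCN channel genes, 1 rose (4.55%, against 2.10% of all features) and 2 fell (9.09%, against 2.48%). Cacna2d1, the alpha-2-delta subunit that gabapentin binds, was at 341.4, 382.4, 413.9, 439.6 and 464.7 CPM in sham and at 573.5, 551.1, 598.3, 598.3 and 561.9 CPM in SNI (1.41-fold, log2 0.50, SE 0.0982, adjusted p = 0.00412). Its groups did not overlap.

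Sensory transduction genes were mostly not DE. Of 28 tested, 2 fell and none rose, a share of 7.14% against 4.58% of all features. Asic1, an acid-sensing channel, was at 47.4 to 68.1 CPM in sham and 30.9 to 40.5 CPM in SNI (log2 -0.65, SE 0.102, adjusted p = 0.000506), and P2rx6, a subunit of ATP-gated channels, fell by 0.48 on the log2 scale. Piezo2, the touch channel, was at 822 ± 53.7 and 802 ± 48.3 CPM, and Trpv1, the heat and capsaicin receptor, at 175 ± 39.4 and 216 ± 30 CPM (adjusted p = 0.401). Without sham 88, 4 of the list were DE.

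Of 26 neurotrophic receptors and ligands, 5 rose (19.2%, against 2.10% of all features) and 1 fell (3.85%, against 2.48%). Gdnf, a survival factor for sensory neurons, was at 0.213 to 0.706 CPM in sham and at 1.1 to 2.18 CPM in SNI (3.87-fold, log2 1.95, SE 0.274, adjusted p = 0.000167). Its co-receptor Gfra1 rose 1.37-fold, and Clcf1, Gfra3 and Fgf2 rose. Clcf1 was not DE without sham 67, sham 77 or SNI 90, and Fgf2 was not DE in 9 of the 10 fits that left out a library. The number that rose was 3 without sham 67, sham 77 or SNI 90. Ret, the signalling receptor for GDNF, had a log2 fold change of 0.00 (SE 0.0831). In the axon guidance list 3 of 33 rose (9.09%, against 2.10% of all features). They were led by Epha5 (1.45-fold, adjusted p = 0.00021), but only 1 was DE without sham 77, SNI 69 or SNI 90.

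The largest fall was that of Calb2, the gene of the calcium-binding protein calretinin (chr8:110137502-110168210, minus strand), which marks some large mechanoreceptive neurons. It was at 14.4, 9.77, 6.25, 7.34 and 4.25 CPM in sham and at 1.14, 0.587, 0.97, 1.87 and 1.06 CPM in SNI. The spread within sham was wide, yet its lowest library stood above every SNI library, and Calb2 fell by 85.9% (log2 -2.83, SE 0.294, adjusted p = 7.73e-06). Pvalb, the gene of parvalbumin, which marks proprioceptors, was at 84.7, 67, 47.2, 53.2 and 43.2 CPM in sham and at 21.7, 22.6, 23.2, 22.7 and 24.5 CPM in SNI. The SNI libraries were close together and all below sham (log2 -1.26, SE 0.275, adjusted p = 0.00852).

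Vstm2b, an immunoglobulin-domain membrane protein, fell by 76.2%, from 6.77 ± 2.95 to 1.49 ± 0.519 CPM. The LncRNA A230077H06Rik, which overlaps Vstm2b on the opposite strand, fell too (log2 -1.73), and reads of the pair cannot be told apart if the counting ignored strand. Cdh12, a neuronal cadherin, fell by 52.1% from 14.3 to 20 CPM in sham to 6.84 to 9.62 CPM in SNI, and Fbp1, an enzyme of gluconeogenesis, fell by 52.9%. Wdr72 fell by 0.95, the muscle-associated gene Smpx by 1.11 and Gm8104, a predicted gene with close copies nearby among which reads may be shared, by 1.78 on the log2 scale. Smpx was not DE without sham 58, 60 or 67 or without SNI 89 or 90. The annotated LncRNAs Gm13629, Gm26673 and Gm16551 fell by 1.36, 1.09 and 1.08. Gm13629 overlaps Scn9a and Gm26673 overlaps Kcna6, each on the opposite strand, and those host genes averaged 822 and 809 CPM and 176 and 178 CPM in sham and SNI.

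**Figure D3:**
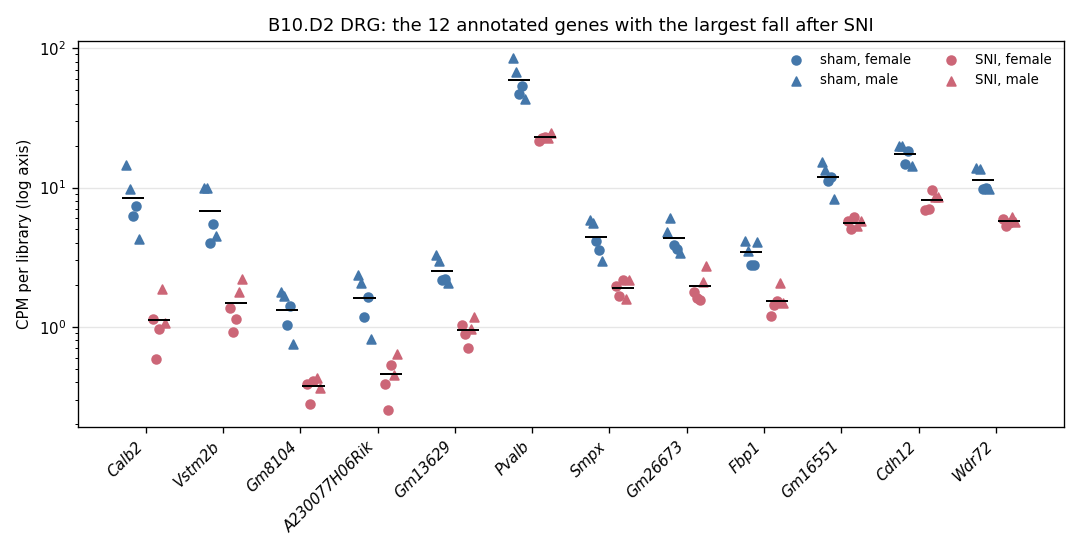
CPM per library on a log axis for the 12 annotated genes with the largest fall, with circles for female and triangles for male libraries and black bars for group means. Calb2 shows the largest fall, and the 5 SNI libraries of Pvalb lie within 21.7 to 24.5 CPM.

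Sham 88 was the lowest sham library for 10 of these 12 genes. The SNI library nearest to sham was SNI 90 for 6 of them, SNI 89 for 4 and SNI 78 for 2, so that SNI 76, the weakest in the rises, was not the weakest in the falls. In the list of synaptic and calcium-binding genes, 9 of 32 fell (28.1%, against 2.48% of all features) and 1 rose (3.12%, against 2.10%). Snap25, a SNARE protein of transmitter release, was at 904.9 to 1091 CPM in sham and at 662.9 to 786.7 CPM in SNI, a fall of 25.7% (adjusted p = 0.000315). Gria4, an AMPA receptor subunit, fell by 22.7%, while Slc17a8, the vesicular glutamate transporter of C low-threshold mechanoreceptors, rose 1.26-fold.

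By cell of origin, the DE neuronal markers were mostly those of myelinated A-fibre neurons. Of 21 such markers, 12 fell and none rose, a share of 57.1% against 2.48% of all features that fell, and the median log2 fold change was -0.31. Nefl, the light neurofilament chain, was at 5984, 5603, 4959, 4599 and 5154 CPM in sham and at 3447, 3134, 3545, 4238 and 4104 CPM in SNI. The groups did not overlap, and Nefl fell by 27.8% (log2 -0.47, SE 0.054, adjusted p = 1.99e-05). Nefh, the heavy chain, was at 1126 to 1539 CPM in sham and at 789.6 to 1012 CPM in SNI (log2 -0.50, SE 0.0762, adjusted p = 0.000359). Esrrg, a nuclear receptor of proprioceptors, fell by 38.2%, and Etv1, a transcription factor of the same cells, by 0.54 on the log2 scale. Ntrk3 (log2 -0.20, adjusted p = 0.263), the receptor of neurotrophin-3, and Ntrk2 (log2 0.14), that of brain-derived neurotrophic factor, were not DE. The count was 8 without sham 58, 60 or 67.

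Of 14 markers of all sensory neurons, 1 fell (7.14%, against 2.48% of all features), which was Snap25, and Uchl1 (log2 -0.10) and Prph (log2 -0.11) were not DE. Of 22 markers of nonpeptidergic nociceptors and itch neurons, none was DE (0%, against 4.58% of all features). Their median log2 fold change was 0.00. Mrgprd, a receptor of that class, was at 146 to 178 CPM in sham and at 134 to 165 CPM in SNI (log2 -0.09, SE 0.0655, adjusted p = 0.518). Of 12 peptidergic markers, 1 rose, which was Gal, and 1 fell (8.33% each, against 2.10% and 2.48% of all features). Of 9 markers of C low-threshold mechanoreceptors and cold neurons, Slc17a8 rose (11.1%, against 2.10% of all features). Whether A-fibre markers changed more than those of other neurons was not tested.

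**Figure D4:**
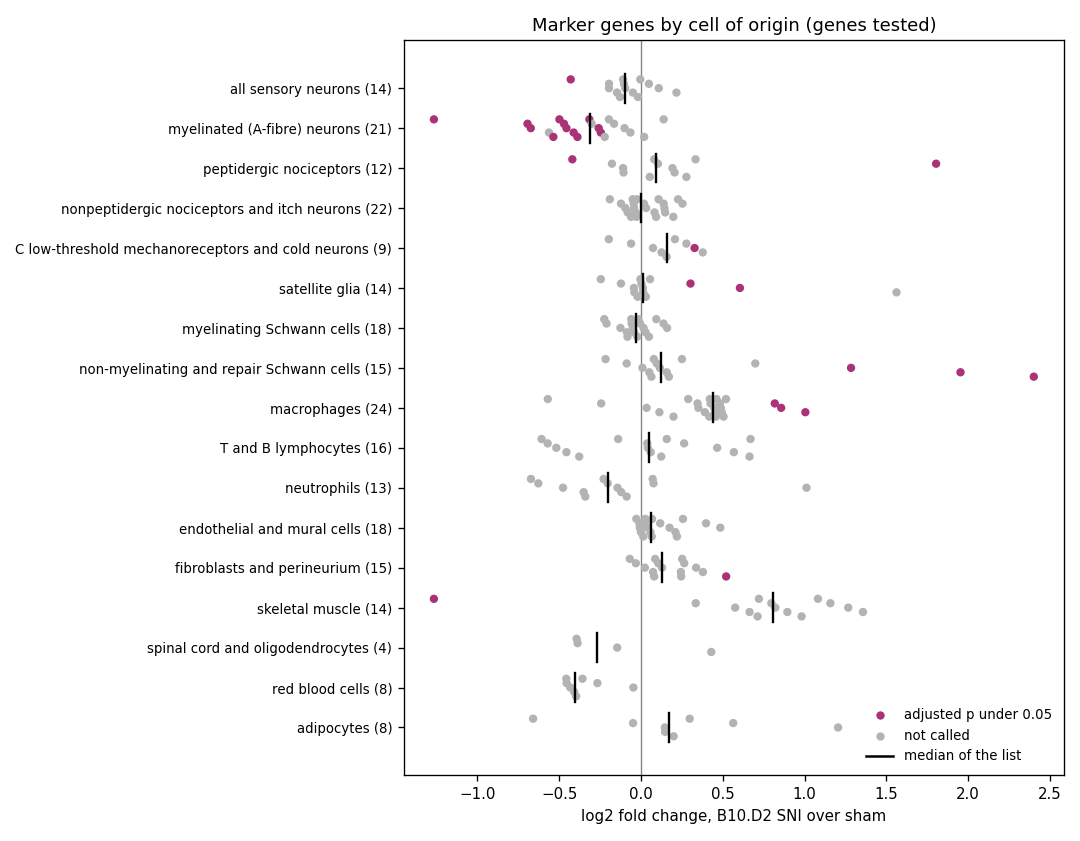
Log2 fold change of SNI over sham for every tested member of 17 lists of cell type markers, with DE members in purple, others in grey, and the list median as a black bar. A-fibre neuron markers lie mostly left of 0 and macrophage markers mostly right of 0. Nonpeptidergic nociceptor and myelinating Schwann cell markers hold no DE member, where 4.58% of all features were DE.

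Among glia, none of 18 markers of myelinating Schwann cells was DE (0%, against 4.58% of all features). Their median log2 fold change was -0.03, with a summed level of 3569 to 3959 CPM in sham and 3288 to 4005 CPM in SNI. Of 14 satellite glia markers, 2 rose (14.3%, against 2.10% of all features). These were Entpd2, an ectonucleotidase (1.52-fold, adjusted p = 0.00268), and Cdh19 (1.23-fold), and without sham 60, sham 67, SNI 69, SNI 78 or SNI 90 the count was 1 and Cdh19 was not DE. Apoe, a lipid carrier made by satellite glia, was at 1557 ± 139.8 and 1502 ± 104.9 CPM. Of 15 markers of non-myelinating and repair Schwann cells, Gdnf, Cxcl14 and Olig1 rose, and Olig1 reached 0.216 ± 0.0664 CPM only and was not DE in 7 of the 10 fits that left out a library.

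Of 24 macrophage markers, 3 rose and none fell, a share of 12.5% that rose against 2.10% of all features, and 22 had a log2 fold change above 0, with a median of 0.44. Ms4a7, a membrane protein of resident macrophages, was at 3.36, 2.77, 3.64, 2.79 and 2.9 CPM in sham and at 8.23, 5.16, 7.42, 5.11 and 6.58 CPM in SNI (2.01-fold, adjusted p = 0.00149). Trem2, a lipid-sensing receptor, and Ctss, a lysosomal protease, rose 1.76-fold and 1.81-fold. Ctss was not DE without sham 77, SNI 69 or SNI 90. Cd68 was at 2.34 to 3.39 CPM in sham and at 2.89 to 5.18 CPM in SNI (adjusted p = 0.144). The number of DE members was 2 without sham 77, SNI 69 or SNI 90 and 5 without SNI 89 or sham 88.

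The summed level of the 24 macrophage markers was 530.5 to 598 CPM in sham and 922, 697, 748, 562 and 712 CPM in SNI 69, 76, 78, 89 and 90. SNI 89 thus lay within the sham range and the other 4 above it. The summed fibroblast and perineurium markers were at 1859 to 1914.5 CPM in sham and 2781, 2281, 2458, 1663 and 2343 CPM in SNI, with SNI 89 below the sham range and the other 4 above it. Only Lum of these 15 was DE, rising 1.43-fold (6.67%, against 2.10% of all features that rose). Endothelial and mural markers held no DE member of 18 (0%, against 4.58% of all features). They summed to 583.4 to 664 CPM in sham and to 586.8 to 786.8 CPM in SNI.

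**Figure D5:**
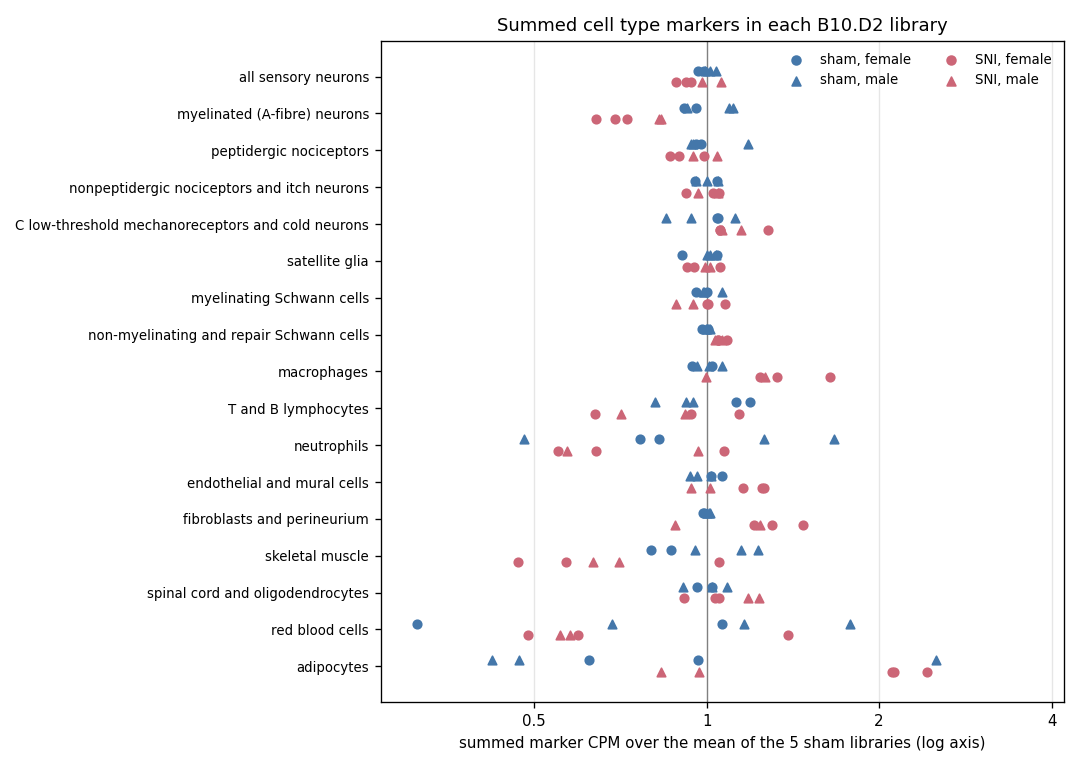
Summed CPM of each cell type list in each library, over the mean of the 5 sham libraries, on a log axis, with circles for female and triangles for male libraries. A-fibre sums lie below sham in all 5 SNI libraries, and macrophage and fibroblast sums lie above sham in 4 of 5.

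The plot of marker sums also shows cells that could come in with the dissection. Red blood cell genes ranged from 237.8 to 1353 CPM over the 10 libraries with the groups intermixed, and none of 8 was DE. Lymphocyte, neutrophil and adipocyte lists held no DE member of 16, 13 and 8. The share in each of these lists was 0%, against 4.58% of all features. Without sham 58, 1 adipocyte gene was DE. In the skeletal muscle list the DE member was Pvalb, which fell, while 13 of 14 members had a log2 fold change above 0 (median 0.81) and the summed level, of which Pvalb makes up much, was 74.2 to 114 CPM in sham and 43.5 to 97.5 CPM in SNI. The median and the sum thus differ in sign. Of the members that were not DE, the fast myosin Myh4 was at 2.92 to 8.02 CPM in sham and 3.22 to 15 CPM in SNI. Of 12 spinal cord and oligodendrocyte markers, 4 passed the low-count filter and none was DE.

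Immune signalling genes rose where they were DE. Of 30 cytokines, chemokines and their receptors, 5 rose (16.7%, against 2.10% of all features) and none fell. Csf1, a growth factor for macrophages that injured neurons make, was at 18.2, 16.6, 16.9, 17.2 and 18.2 CPM in sham and at 28, 21.3, 25.1, 24.7 and 30.4 CPM in SNI (1.5-fold, log2 0.59, SE 0.0771, adjusted p = 7.91e-05). Its receptor Csf1r did not overlap between the groups either, at 37.5 ± 1.67 and 52.5 ± 8.29 CPM, but was not DE (adjusted p = 0.0877). Il1r1 rose 1.34-fold and Cxcl14 2.44-fold, and Il1b and Cxcl10 were the other 2, of which Il1b was not DE in 7 of the 10 fits that left out a library. Without SNI 89, 8 of the list were DE. In the complement and MHC list, 4 of 30 rose (13.3%, against 2.10% of all features). They were led by C4b, at 74.3 to 84.2 CPM in sham and at 103.3 to 175.7 CPM in SNI (1.61-fold, adjusted p = 0.000571). In this list 2 were DE without sham 58, 60 or 77 or without SNI 69 or 90.

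Of 25 interferon-stimulated genes, 6 rose (24.0%, against 2.10% of all features), and 25 of 25 had a log2 fold change above 0. Gbp2, a guanylate-binding protein, was at 18.5 to 25.2 CPM in sham and at 80.4, 30.4, 28.8, 28.7 and 54.6 CPM in SNI. SNI 69 and 90 stood apart from the other 3, and Gbp2 was not DE without SNI 90. The number of DE members was 1 without SNI 90, 2 without SNI 69 or without sham 58, 60 or 77, and 4 without sham 88. The summed macrophage markers were also highest in SNI 69, and the part of those cells in the result was not tested.

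Of 32 matrix and protease genes, 5 rose (15.6%, against 2.10% of all features) and 2 fell (6.25%, against 2.48%). Tnc, the gene of tenascin-C, a matrix protein of injured tissue, was at 12.4, 18.4, 14, 11.3 and 14 CPM in sham and at 116, 43, 73.6, 59.1 and 91.5 CPM in SNI. The rise was 5.58-fold (log2 2.48, SE 0.272, adjusted p = 1.24e-05) with no overlap. Loxl2, a collagen cross-linking enzyme, rose 2.48-fold and Postn, the gene of periostin, 1.84-fold. The part of fibroblasts, whose summed markers are given above, was not tested. Hapln4 and Bcan, genes of the matrix around neurons, fell by 0.67 and 0.36 on the log2 scale, and Bcan was not DE in 6 of the 10 fits that left out a library.

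Of 26 ATF4 and unfolded protein genes, Sesn2 alone rose (3.85%, against 2.10% of all features, 1.26-fold, adjusted p = 0.0444), and it was not DE in 9 of the 10 fits that left out a library. Of 20 p53 and cell death genes, 2 rose (10%, against 2.10% of all features), among them Tnfrsf12a (1.65-fold). Without SNI 76, 5 were DE. Of 22 cholesterol synthesis genes, Msmo1 fell (4.55%, against 2.48% of all features, log2 -0.20, adjusted p = 0.0302). The count was 0 without sham 58, 60 or 88 or without SNI 69 or 90, and 2 without sham 77 or SNI 76. None of 28 cell cycle genes was DE (0%, against 4.58% of all features). Of these genes, 23 had a log2 fold change above 0, and the list median was 0.25. Their summed level was 110.2 to 130.5 CPM in sham and 130.8 to 148.2 CPM in SNI. Mki67 was at 8.4 ± 1.98 CPM in sham and 10.4 ± 1.99 CPM in SNI.

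Among the LncRNAs that the study assembled, 44 rose and 49 fell of 3763 tested (2.47% DE, against 4.58% of all features). LncRNA6792 (chr14:123345888-123361585, plus strand) lies within Nalcn on the opposite strand. It was at 0.263, 0.211, 0.136, 0.16 and 0.121 CPM in sham and at 3.29, 0.766, 2.23, 1.93 and 2.46 CPM in SNI (12.2-fold, log2 3.61, adjusted p = 2.95e-05), again with SNI 76 lowest. Nalcn itself was at 96.5 and 94.5 CPM. LncRNA6532 (chr13:32468203-32482391, plus strand) overlaps no feature of the table and rose 9.01-fold. LncRNA1522 (chr7:119307269-119313248, minus strand) fell from 2.05 ± 0.41 to 0.694 ± 0.231 CPM, and LncRNA3339, which lies within St8sia5 on the same strand, from 2.14 ± 0.747 to 1.04 ± 0.144 CPM. LncRNA3339 was not DE without SNI 90.

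With 2 or 3 libraries per sex and surgery, the sex by injury interaction was called for 0 of 25711 features (0%) by edgeR, of which 1144 had an unadjusted p under 0.05, and for 0 by DESeq2, where 875 did. With no low-count filter 11 features were called. For Sprr1a the female groups averaged 0.351 and 16.3 CPM and the male groups 0.624 and 16.8 CPM. For Nefl they averaged 4779 and 3375 CPM in females and 5580 and 4171 CPM in males.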

How the data were processed

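Per the study's methods, ribosome-depleted RNA was made into strand-specific paired-end libraries (dUTP strand marking), and the authors aligned reads to mm10 with STAR and counted pairs with HTSeq over annotated genes and LncRNAs that they had assembled themselves. Tool versions are not given in the sources used here, nor is whether the counting used strand. The deposited mouse table holds raw counts per feature, with no normalization by the authors. The study's methods state that sample 59 was excluded for mapping quality and that a further B10.D2 SNI library was lost in preparation. Tables of the authors' own comparisons (fold changes and p-values) were not used.

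Counts were analysed with edgeR 4.0.16 in R 4.3.3. All 20 mouse libraries were fitted with a term for sex and a factor for strain and surgery, after filterByExpr and TMM normalization, and the contrast was B10.D2 SNI minus sham. Standard errors are the log2 fold change over the square root of F. CPM values are scaled by the TMM factors, which were 0.974 to 1.02 in B10.D2. Means are given ± SD over 5 libraries. The SD measures the spread between the mice of 1 group, each library being a separate mouse. The p-values rest on the spread between mice within groups over all 20 libraries, moderated across features. Symbols, classes and positions came from GENCODE M21 on mm10, which matched 49326 of 49585 annotated identifiers, and promoters from RefSeq (GRCm38.p6).

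Named genes were, among annotated DE genes at 1 CPM or more in the higher group whose libraries did not overlap, those 12 that rose and those 12 that fell by the largest log2 fold change, 2 assembled LncRNAs per direction, a fixed set of injury and marker genes, and per list up to 3 DE genes per direction with the lowest p and the 3 others with the highest CPM. Further DE members are named where they complete a list or serve as examples, and these were chosen after their values were seen. The 36 lists and their members were chosen with earlier results of these data known. Alternatives were size factors by RLE, DESeq2 1.42.0, no filter, at least 10 counts in every library, B10.D2 libraries alone, no sex term, equal weight of the sexes, and leaving out each library. A few members counted in the lists are not reported here by name. The model was also run on simulated counts with changes of at least 2-fold and no baseline difference between strains or sexes. The outcome is not reported here. No 2 libraries of a group agreed within sampling noise (chi-square per degree of freedom of at least 7.53).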

Additional observations from a re-analysis of the deposited data

Results flagged for a closer look

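Over the named genes and the summed marker lists, 108 groups of 5 libraries were examined for a library far from the other 4, and 12 were found. Chance alone gives about 1 in 20 where groups are unrelated. These groups share libraries and some genes, so the 12 cannot be set against that rate. SNI 76 was low for Lipn (0.613 CPM, the other 4 at 2.07 to 2.6), Ecel1 (3.78 CPM, the others at 13.7 to 17.3) and Atf3 (35.6 CPM, the others at 85.8 to 106). Sham 60 was high for Gm29374 (0.211 CPM), Fgf3 (0.663 CPM) and Tex16 (0.241 CPM). Sham 88 was at 0 CPM for Anxa10, and the other 4 sham libraries were at 0.117 to 0.16 CPM. In sham 88, 3 counts stand at 0.0716 CPM. Sham 88 was also high for Calca (1166 CPM) and for the summed peptidergic nociceptor markers (2156 CPM). SNI 89 was high for LncRNA1522 (1.1 CPM), SNI 69 for the summed red blood cell genes (1057 CPM) and sham 58 for the summed adipocyte genes (117 CPM).

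The rise after SNI was smaller in B10.D2 than in BALB/c for 4 DE features by the strain by injury interaction, with edgeR. The difference of log2 fold changes, B10.D2 minus BALB/c, was -2.37 for Gal, -1.74 for Ly6a (adjusted p = 0.000122), -1.68 for Wfdc3 (adjusted p = 0.0208) and -0.33 for Cdc23 (adjusted p = 0.0353). Ly6a, a surface protein of several stem and vessel cells, was at 13.1 ± 2.78 and 20.5 ± 3.53 CPM in B10.D2 sham and SNI, and at 5.11 ± 1.03 and 26.1 ± 1.81 CPM in BALB/c. Wfdc3 was at 0.677 ± 0.139 and 1.1 ± 0.294 CPM in B10.D2 and at 0.943 ± 0.187 and 4.91 ± 0.454 CPM in BALB/c. Cdc23, a subunit of the anaphase-promoting complex, was at 46 ± 1.21 and 51.8 ± 3.5 CPM in B10.D2 and at 52.6 ± 0.852 and 73.6 ± 2.91 CPM in BALB/c.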

How the results depend on the processing

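The number of DE features ranged from 665 to 1214 when 1 library was left out, with 1130 in all libraries. The sex by injury interaction gave 11 calls with no low-count filter against 0, and from 0 to 2 when 1 library was left out. The strain by injury interaction gave 11 calls with DESeq2, 3 with at least 10 counts in every library and 3 to 6 when 1 library was left out, against 6. The cause of these changes was not tested. Of 191 named genes, 89 were DE, and 73 of these were DE in all 10 fits that left out a library, 85 with DESeq2 and 80 with the B10.D2 libraries alone. No named gene changed sign where it was DE in either fit. No paired analysis was made, since each library came from a different mouse and no pairing of mice is given in the sources used here.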

Other observations

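Lrtm1 rose in B10.D2 but was near the floor in both BALB/c groups, at 0.0189 CPM in sham and 0.0196 ± 0.0243 CPM in SNI. The strain by injury interaction was log2 3.32 and was not called (adjusted p = 1), at the low counts of this gene. Duoxa1, a maturation factor of a dual oxidase, was called for that interaction (log2 -2.72, adjusted p = 4.11e-06) without being DE in B10.D2, where it was at 0.862 ± 0.12 and 1.12 ± 0.0979 CPM in sham and SNI, against 0.245 ± 0.0558 and 2.14 ± 0.288 CPM in BALB/c.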
